A study of Mus musculus with 6 samples.

Results

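The endoplasmic reticulum (ER) chaperones and XBP1 targets described here are 10 genes chosen by symbol for what their proteins do in the ER: Hspa5, Hsp90b1, Pdia4, Pdia6, Calr, Dnajb9, Xbp1, Sdf2l1, Herpud1 and Hyou1. All 10 were found among the 26191 genes of the deposited heart table, and all 10 were among the 13260 genes kept for testing, whose FPKM was 1 or more in 3 or more of the 6 libraries. FPKM counts sequenced fragments per kilobase of transcript, scaled to the total of the library, so levels of different genes can be set side by side per length. The libraries were made from mouse embryonic hearts at embryonic day 12. The 3 ctrl libraries carried the genotype Mrps5 fl/fl, and the 3 cKO libraries carried Mrps5 fl/fl; cTNT-Cre, so by the labels both alleles of Mrps5 were floxed in both groups and only the cKO embryos had the Cre transgene. A legend of the study writes the mutant with a wild-type Mrps5 allele instead, and the labels were followed here. Mrps5 encodes a protein of the small subunit of the mitochondrial ribosome. The cTNT promoter, from the cardiac troponin T gene, drives Cre in cardiomyocytes, so the other cells of a cKO heart keep Mrps5, and each library was a pool of several hearts. The comparison addresses whether a general ER stress response accompanied the induction of Atf4 in the cKO hearts.

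The ER folds proteins that are secreted or sit in membranes, and its unfolded protein response has 3 sensors. IRE1, encoded by Ern1, cuts a short intron out of Xbp1 mRNA, and the spliced mRNA encodes an active transcription factor. ATF6 moves to the Golgi, where it is cleaved into a transcription factor, and XBP1 and ATF6 then act on the promoters of ER chaperone genes. PERK, encoded by Eif2ak3, phosphorylates the translation factor eIF2alpha, which favours translation of ATF4, but other kinases that sense amino acid shortage, heme or mitochondrial disturbance reach ATF4 through the same factor. High levels of ATF4 targets are therefore known both with and without ER stress, and the chaperone genes are the usual readout of the ATF6 and XBP1 branches.

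The promoter elements of those branches are shown first, because they mark which of the 10 genes carry a known ER stress sequence close to the start of transcription. Windows of 250 bases before the start were taken from RefSeq (GRCm38.p6) and were found for 9 of the 10 genes, Hyou1 being unmatched. Both strands were searched for the ER stress response element (ERSE, CCAAT and CCACG with 9 free bases between them), for its second form (ERSE-II, ATTGG and CCACG with 1 free base between them), for the XBP1 element (UPRE, TGACGTGG) and for the C/EBP-ATF element bound by ATF4 (CARE, TGATGNAA). ERSE and ERSE-II share the CCACG part, and the ATTGG of ERSE-II is CCAAT read on the other strand, while the UPRE contains the CCACG part on its other strand. The ERSE was present in the windows of Hspa5, Hsp90b1, Pdia6 and Calr, which is 4 of 9 genes, against 0.113% of the 32851 windows in the RefSeq table. Herpud1 held both an ERSE-II, found in 0.0304% of all windows, and a CARE, found in 3.45%, and was the only gene among the 9 with a CARE. The UPRE, present in 0.563% of all windows, was in 0 of 9. The windows ended just before the start, so an element running across the start could not match. The Herpud1 window ends with CCAAT, 9 free bases and CCAC, so whether an ERSE lies there was not settled. The windows of Hspa5 (chr2:34771840-34772089, plus strand) and Herpud1 (chr8:94386179-94386428, plus strand), the pair that the expression results turn on, are given 5′ to 3′ with the matched letters in capitals.
Hspa5: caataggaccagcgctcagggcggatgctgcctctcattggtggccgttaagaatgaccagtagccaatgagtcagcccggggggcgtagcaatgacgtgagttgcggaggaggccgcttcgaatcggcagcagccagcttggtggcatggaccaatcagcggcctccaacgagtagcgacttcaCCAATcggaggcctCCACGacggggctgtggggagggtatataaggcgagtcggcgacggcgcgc
Herpud1: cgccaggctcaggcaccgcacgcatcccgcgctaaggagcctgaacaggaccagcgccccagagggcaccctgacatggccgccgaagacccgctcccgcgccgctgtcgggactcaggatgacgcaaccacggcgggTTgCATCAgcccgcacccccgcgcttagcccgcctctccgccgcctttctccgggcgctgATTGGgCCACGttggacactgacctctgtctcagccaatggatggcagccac
In the first, the capitals mark an ERSE from base -65 to -47 before the start. In the second they mark a CARE on the other strand at -112 to -105 and an ERSE-II at -52 to -42. The other matched elements are shown for comparison of their spacers, with the fixed parts in capitals.
Hsp90b1, bases -212 to -194: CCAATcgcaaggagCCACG
Hsp90b1, bases -107 to -89, other strand: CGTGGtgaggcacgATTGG
Pdia6, bases -98 to -80: CCAATgaaaggcggCCACG
Calr, bases -162 to -144, other strand: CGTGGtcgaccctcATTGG
A match of letters does not show that a factor bound there in these hearts. The elements and the genes were both chosen as known parts of the ER stress response. The counts therefore describe the windows, and the shares beside them are no test of enrichment.

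The libraries were checked before the results. Mrps5 itself was at 9.65, 11.4 and 10.4 FPKM in ctrl replicates 1, 2 and 3, and at 5.28, 7.41 and 10.4 FPKM in cKO replicates 1, 2 and 3. The library labelled cKO replicate 3 was thus at the ctrl level of the deleted gene, and values without it are given below for the genes whose groups or calls turn on it. FPKM of the 6 libraries summed to 454692 to 515952, and the number of reads behind them is unknown. Erythroid genes took 12.0% to 13.3% of the summed FPKM in ctrl libraries and 23.5%, 10.8% and 22.0% in cKO replicates 1, 2 and 3, while the sum over all other genes stayed between 394700 and 413300 in the 6 libraries. Cardiomyocyte markers were all detected and summed to 12280 to 14850 FPKM in ctrl and 10790 to 12040 FPKM in cKO hearts, with 7 of 12 lower and 1 higher at an unadjusted p under 0.05, beside 9.43% of all genes called lower and 5.57% called higher. Matrix and mesenchymal markers, from cells with heavy traffic through the ER, summed to 1401 to 1484 FPKM in ctrl and 1441 to 1613 FPKM in cKO hearts. Epicardial markers summed to 147 to 166 FPKM in ctrl hearts and to 208, 192 and 157 FPKM in cKO replicates 1, 2 and 3. The part of these shifts in the ER genes was not tested, and in whole hearts fewer cells of a type and less RNA per cell cannot be told apart.

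For the major chaperones of the ER the cKO and ctrl libraries overlapped, and no difference passed the test. Hspa5 (ENSMUSG00000026864), which encodes BiP, the Hsp70 chaperone that holds the stress sensors inactive, is the standard marker of ER stress. Its level was 218, 262 and 235 FPKM in ctrl replicates 1, 2 and 3 and 207, 238 and 231 FPKM in cKO replicates 1, 2 and 3. The groups overlapped, and cKO replicate 1 was the lowest library. The log2 fold change (cKO minus ctrl, on log2 of FPKM plus 1) was -0.08 with a standard error of 0.10 and a 95% interval of -0.32 to 0.16 (adjusted p = 0.774 from limma with Benjamini-Hochberg adjustment over all genes tested). Hsp90b1 encodes the ER member of the Hsp90 family and was the most abundant of the 10 genes. It was at 271, 337 and 283 FPKM in ctrl and 275, 318 and 316 FPKM in cKO hearts, with overlapping groups and a log2 fold change of 0.03 (95% interval -0.24 to 0.30). Calr encodes calreticulin, a calcium-binding chaperone of glycoproteins that the embryonic heart depends on. It was at 241, 268 and 275 FPKM in ctrl and 228, 261 and 284 FPKM in cKO hearts, where replicates 1 and 3 formed the lowest and the highest value of all 6 libraries. Its log2 fold change was -0.02 (95% interval -0.28 to 0.23).

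**Figure D1:**
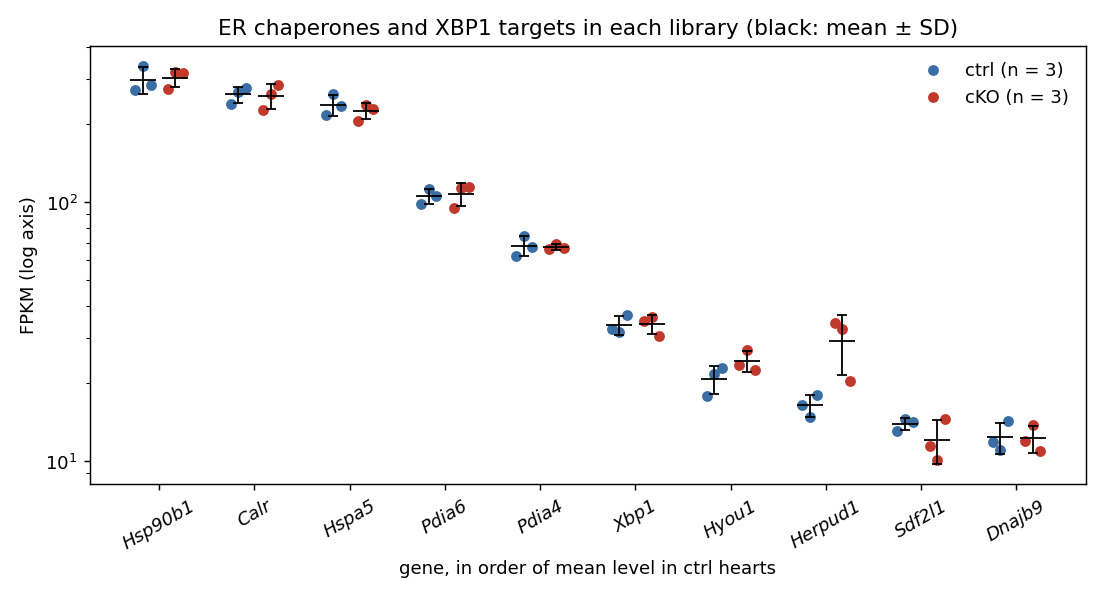
FPKM of the 10 genes on a log axis in each of 3 ctrl (blue) and 3 cKO (red) libraries, with the group mean and SD in black, ordered by mean level in ctrl hearts. Herpud1 is the one gene whose cKO libraries, at 20.5 to 34.4 FPKM, all lie above the ctrl libraries, at 14.9 to 18.1 FPKM.

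The protein disulfide isomerases, which form and rearrange disulfide bonds in the ER lumen, also overlapped between groups. Pdia4 was at 62.3, 74.4 and 67.6 FPKM in ctrl and 66.1, 69.3 and 66.6 FPKM in cKO hearts. All 3 cKO libraries lay inside the ctrl range, and the log2 fold change was -0.01 (95% interval -0.22 to 0.19). Pdia6, whose product also limits the activity of IRE1, was at 98.6, 113 and 106 FPKM in ctrl and 95.6, 114 and 114 FPKM in cKO hearts. Its groups overlapped, with a log2 fold change of 0.02 (95% interval -0.21 to 0.26).

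The genes most closely tied to XBP1 were also without a difference that passed the test. Xbp1 itself, which its own protein and ATF6 can induce, was at 32.4, 31.7 and 36.7 FPKM in ctrl and 34.9, 36.1 and 30.6 FPKM in cKO hearts. The highest library was a ctrl and the lowest a cKO library, and the log2 fold change was 0.01 (95% interval -0.21 to 0.23). Dnajb9, which encodes the BiP co-chaperone ERdj4 and is a classical XBP1 target, was at 11.9, 11.03 and 14.3 FPKM in ctrl and 12.0, 13.9 and 10.98 FPKM in cKO hearts. These groups covered nearly the same range, and the log2 fold change was -0.01 (95% interval -0.29 to 0.27). Sdf2l1 encodes a partner of ER Hsp40 co-chaperones and is strongly induced by ER stress in many cells. It was at 13.2, 14.6 and 14.2 FPKM in ctrl and 11.5, 10.1 and 14.6 FPKM in cKO hearts, so cKO replicates 1 and 2 were below every ctrl library and replicate 3 was at the top of them. The log2 fold change was -0.21 (95% interval -0.51 to 0.09, adjusted p = 0.481), the lowest of the 10 genes. Without cKO replicate 3 it was -0.35 with an unadjusted p under 0.05 and an adjusted p of 0.161, and without cKO replicate 2 it was -0.10 with an adjusted p of 0.709.

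Hyou1 encodes the large Hsp70-like protein that exchanges nucleotides on BiP. It was at 17.8, 21.7 and 22.9 FPKM in ctrl and 23.6, 27.0 and 22.6 FPKM in cKO hearts. cKO replicate 3 was just under ctrl replicate 3, and the other 2 cKO libraries were above every ctrl library. The log2 fold change was 0.22 with a standard error of 0.11 and a 95% interval of -0.04 to 0.49 (adjusted p = 0.399). Without ctrl replicate 1 it was 0.12 with an adjusted p of 0.784, and without cKO replicate 3 it was 0.27 with an adjusted p of 0.365.

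Herpud1 (ENSMUSG00000031770) was the one gene of the 10 whose groups did not overlap, although it did not pass the adjusted threshold with all 6 libraries. It encodes a membrane protein of the ER that assembles the complex for degradation of misfolded ER proteins. Its level was 16.5, 14.9 and 18.1 FPKM in ctrl replicates 1, 2 and 3 and 34.4, 32.6 and 20.5 FPKM in cKO replicates 1, 2 and 3. Every cKO library was above every ctrl library, as in 7.74% of all genes tested, with replicate 3 the closest to the ctrl range. The log2 fold change was 0.75 with a standard error of 0.18 and a 95% interval of 0.34 to 1.17 (adjusted p = 0.153 from limma). Without cKO replicate 3, in which Mrps5 was at the ctrl level, it was 0.98 with an adjusted p of 0.00351. Leaving out that library also raised the number of all genes with an adjusted p under 0.05 from 11 to 270. Over all 15 alternatives in processing the log2 fold change stayed between 0.62 and 0.98 and the adjusted p between 0.00351 and 0.445. Herpud1 was at 32.6 FPKM in cKO replicate 2, where erythroid genes took 10.8% of the summed FPKM, and at 34.4 and 20.5 FPKM in replicates 1 and 3, where they took 23.5% and 22.0%. The part of the erythroid share, or of shifts in other cell types, in this difference was not tested.

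Across the 10 genes, 1 had an unadjusted p under 0.05, which is 10% of them beside 15% of all genes tested (5.57% higher and 9.43% lower), while 0 passed the adjusted threshold of 0.05 in limma, beside 11 genes or 0.083% of all. A share of 10% is close to the background and is no result about the genes as a group. The directions were split, since 5 genes were higher and 5 were lower. The median of the 10 log2 fold changes was 0.001, beside -0.02 for all genes tested. Without Herpud1 the other 9 lay between -0.21 and 0.22. Within the cKO group the 10 genes did not move as 1 block either. Replicate 1 had 3 of them above the ctrl mean, replicate 2 had 9 and replicate 3 had 6, and their median difference from the ctrl mean was -0.07, 0.10 and 0.08 on the log2 scale. The ctrl libraries themselves ranged from -0.11 to 0.06 in the same measure.

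**Figure D2:**
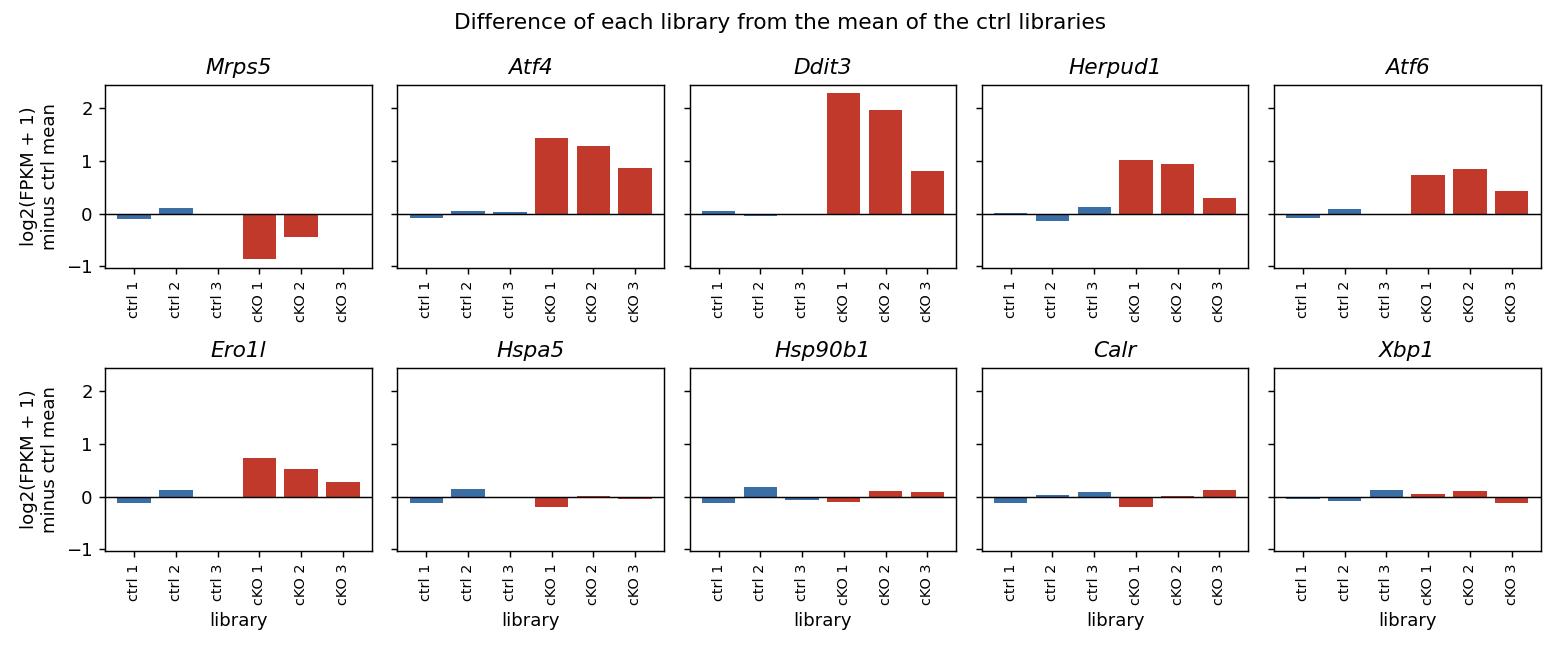
Difference of each library from the mean of the ctrl libraries on log2(FPKM + 1), for the deleted gene Mrps5, Herpud1 with 4 other genes that were higher in cKO hearts, and Hspa5, Hsp90b1, Calr and Xbp1, with ctrl libraries in blue and cKO libraries in red. Atf4, Ddit3, Herpud1, Atf6 and Ero1l are above 0 in all cKO libraries and lowest in replicate 3, where Mrps5 differs from the ctrl mean by -0.01, while Hspa5, Hsp90b1, Calr and Xbp1 lie between -0.20 and 0.12 in the cKO libraries.

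The order of levels in ctrl hearts ran from Hsp90b1 at 297 ± 34.9 FPKM (SD, n = 3) through Calr at 261 ± 18.1 FPKM and Hspa5 at 238 ± 22.1 FPKM to Dnajb9 at 12.4 ± 1.70 FPKM. Neighbours among the first 3 overlapped between libraries, and so did Hyou1 with Herpud1 and Sdf2l1 with Dnajb9. Pdia6, Pdia4 and Xbp1 were separated from their neighbours in every ctrl library. Over all 6 libraries the coefficient of variation was 5.89% for Pdia4, 14.4% for Sdf2l1 and 37.1% for Herpud1, with the other 7 genes between the first and second of these.

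The gene sums hold more than 1 transcript row for some genes, and the rows were examined separately. Both expressed rows of Herpud1 had a higher mean in cKO hearts. Herpud1-205 was at 8.63, 11.1 and 13.6 FPKM in ctrl and 24.4, 22.6 and 14.3 FPKM in cKO hearts, and Herpud1-201 at 7.90, 3.83 and 4.56 FPKM in ctrl and 9.96, 10.03 and 6.21 FPKM in cKO hearts. For Herpud1-201 the cKO and ctrl values overlapped, and for Herpud1-205 they did not. The Hyou1 rows were unstable between libraries of the same group. Hyou1-204 made up 38.6%, 68.4% and 4.73% of the gene in ctrl replicates 1, 2 and 3 and 72.9%, 86.8% and 60.8% in cKO replicates 1, 2 and 3. With that row alone the log2 fold change of Hyou1 became 1.55 (adjusted p = 0.430), in place of 0.22 for the gene sum. Hspa5-202 made up 75.4% to 85.4% of Hspa5 in all libraries. Xbp1-201 made up 84.6% to 90.2% of Xbp1, and its other rows, Xbp1-203 and Xbp1-204, do not differ from it by the loss of an internal stretch, so no row used here stands for the IRE1-spliced form and splicing of Xbp1 was not measured.

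**Figure D3:**
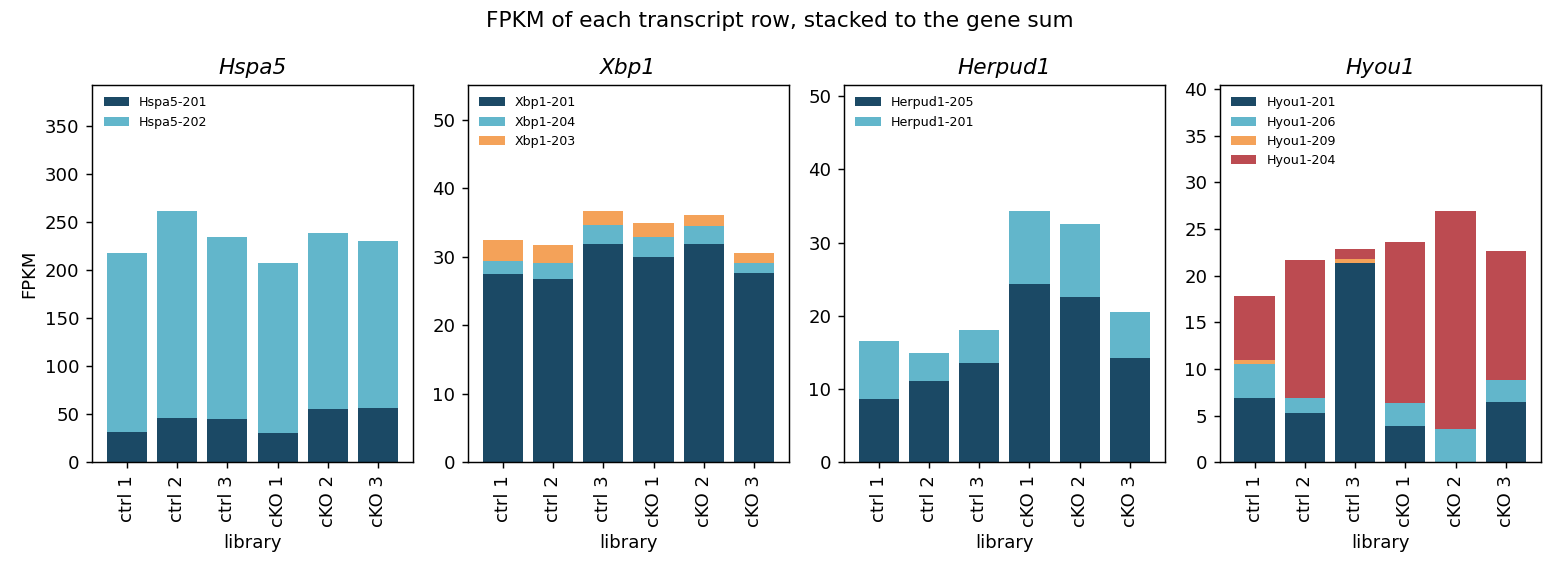
FPKM of each transcript row, stacked to the gene sum, for Hspa5, Xbp1, Herpud1 and Hyou1 in the 3 ctrl and 3 cKO libraries; each panel has its own axis. Both Herpud1 rows are largest in cKO replicates 1 and 2, and the split of Hyou1 between Hyou1-201 and Hyou1-204 differs among the ctrl libraries.

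Of the genes for the sensors and their processing, 1 of 8 had an unadjusted p under 0.05, which is 12.5% beside 15% of all genes tested and no result about them as a group. This was Atf6, at 8.90, 10.2 and 9.47 FPKM in ctrl and 16.5, 17.8 and 13.1 FPKM in cKO hearts. Every cKO library was above every ctrl library, and the log2 fold change was 0.66 with a standard error of 0.12 (adjusted p = 0.0952 from limma). Without cKO replicate 3 it was 0.78 with an adjusted p of 0.00710, and with another library left out the adjusted p was up to 0.366. The related sensor gene Atf6b was at 13.2, 13.5 and 15.4 FPKM in ctrl and 15.0, 18.0 and 15.2 FPKM in cKO hearts, a log2 fold change of 0.18 (95% interval -0.05 to 0.42) with overlapping groups. The genes of the other sensors gave nearly the same mean in both groups. Ern1 was at 5.63, 4.55 and 4.41 FPKM in ctrl and 5.33, 5.09 and 4.24 FPKM in cKO hearts. Eif2ak3 was at 5.26, 5.74 and 4.53 FPKM in ctrl and 5.05, 5.84 and 4.73 FPKM in cKO hearts. The 95% interval of the log2 fold change was -0.28 to 0.29 for Ern1 and -0.26 to 0.27 for Eif2ak3. Mbtps1 and Mbtps2, the site proteases that cleave ATF6, were at -0.01 and 0.06 on the log2 fold change scale, Rtcb, the ligase that joins spliced Xbp1, at 0.09, and Creb3l2, a relative of ATF6, at -0.05. With its most abundant row Mbtps1 was at -0.30 (adjusted p = 0.377). These are mRNA levels, and the activity of the sensors was not measured.

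**Figure D4:**
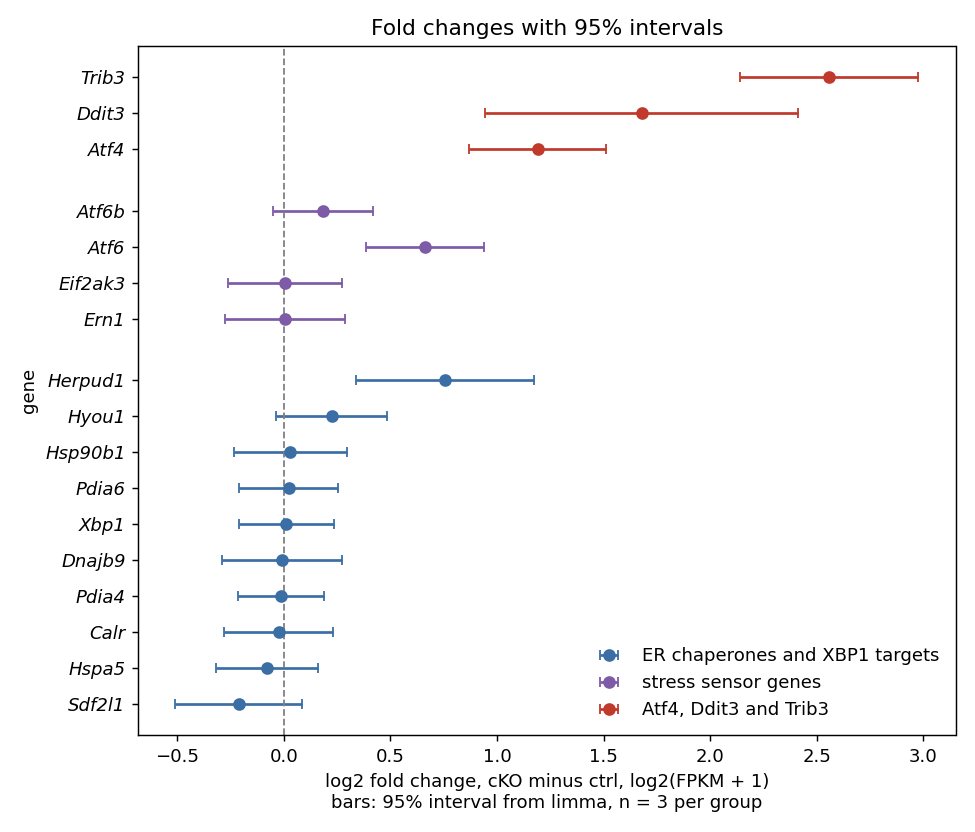
Log2 fold change, cKO minus ctrl on log2(FPKM + 1), with its 95% interval from limma (n = 3 per group) for the 10 ER chaperone and XBP1 target genes (blue), 4 sensor genes (purple) and Atf4, Ddit3 and Trib3 (red). Among the blue genes the interval of Herpud1, 0.34 to 1.17, is the one that leaves out 0, and the intervals of Atf4 and Hspa5 do not overlap.

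Of 25 other ER folding factors 2 had an unadjusted p under 0.05, both higher, which is 8% beside 15% of all genes called in either direction and 5.57% called higher, and their median log2 fold change was 0.05. Ero1l, which encodes an oxidase that passes oxidizing power to the disulfide isomerases and is also known as a target of CHOP, was at 17.3, 20.5 and 18.8 FPKM in ctrl and 32.0, 27.3 and 23.0 FPKM in cKO hearts. All cKO libraries were above all ctrl libraries, and its log2 fold change was 0.51 (standard error 0.13, adjusted p = 0.161). It was 0.62 with an adjusted p of 0.0370 without cKO replicate 3, and with another library left out the adjusted p was up to 0.460. The second was P4hb, a disulfide isomerase and collagen hydroxylase subunit, with a log2 fold change of 0.22 (adjusted p = 0.332). Sdf2, the housekeeping relative of Sdf2l1, and Txndc11, a thioredoxin-like ER protein, were each at -0.18 with every cKO library below every ctrl library, as in 13% of all genes. The log2 fold changes of the 25 ran from -0.21 to 0.51.

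ER-associated degradation, the pathway in which Herpud1 acts, removes misfolded proteins from the ER. Of 18 listed genes 17 were tested, Derl3 being too low, and 5 had an unadjusted p under 0.05, all higher, which is 29.4% beside 15% of all genes called in either direction and 5.57% called higher. Their adjusted p was above 0.05 in each case, and the median log2 fold change of the 17 was 0.08. Sel1l, the scaffold of the main ubiquitin ligase of the pathway, was at 11.5, 10.4 and 12.49 FPKM in ctrl and 17.02, 14.9 and 17.2 FPKM in cKO hearts. The groups did not overlap and cKO replicate 3 was the highest library, and its log2 fold change was 0.48 (standard error 0.10, adjusted p = 0.128), or 0.44 with an adjusted p of 0.114 without that library. The others included Ube2j1 at 0.25, Derl1 at 0.20 and Os9 at 0.21, which encode a conjugating enzyme, a channel protein and a lectin, Os9 being named after its value was seen. The count was 3 without ctrl replicate 1 and 3 without ctrl replicate 3. The log2 fold changes of the 17 ran from -0.08 to 0.48.

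Genes for entry into the ER and export from it were higher in 24 of 32 cases, beside 5967 of the 13260 genes tested. The libraries differed, with 12, 28 and 25 of the 32 above the ctrl mean in cKO replicates 1, 2 and 3, and a median difference from that mean of -0.05, 0.14 and 0.06 on the log2 scale. It was -0.10, 0.06 and 0.03 in ctrl replicates 1, 2 and 3. Their median log2 fold change was 0.07, and 3 had an unadjusted p under 0.05, all higher, which is 9.38% beside 15% of all genes called in either direction and 5.57% called higher. They were Arfgap3 at 0.31, a regulator of transport vesicles, Rpn2 at 0.22, a subunit of the oligosaccharyltransferase, and Ssr4 at 0.19, a subunit of the translocon-associated complex. Kdelr3, a receptor that returns chaperones to the ER, followed at 0.18 with an unadjusted p above 0.05. Without ctrl replicate 1 the count of 3 was 0.

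**Figure D5:**
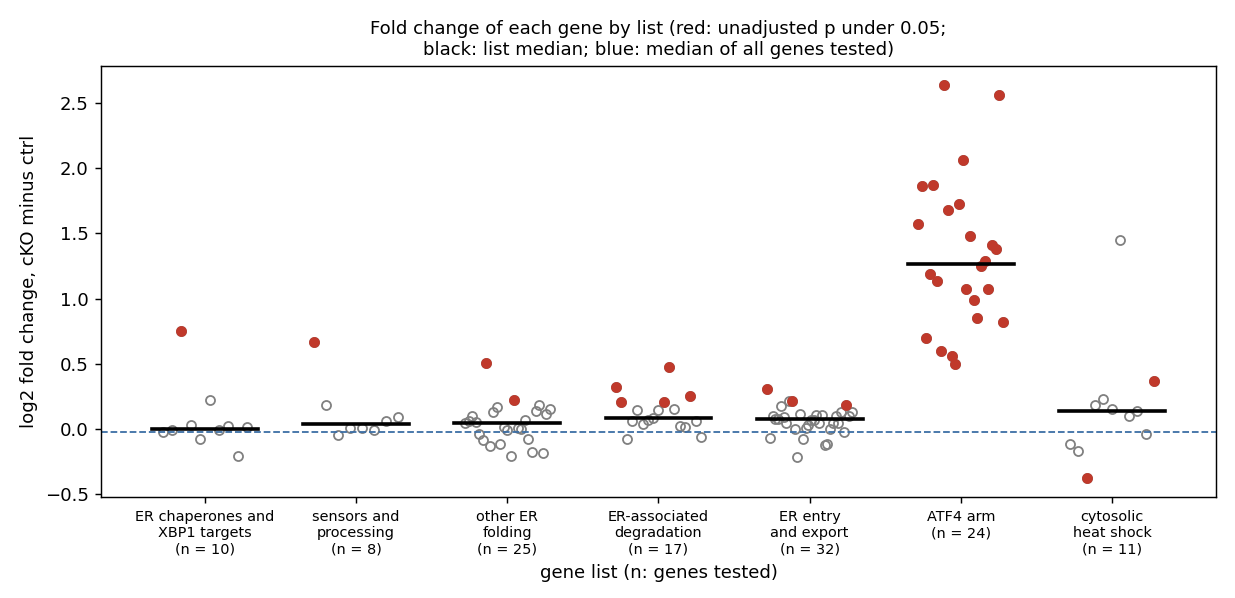
Log2 fold change of each gene, cKO minus ctrl on log2(FPKM + 1), for 7 gene lists, with genes at an unadjusted p under 0.05 in red, list medians as black bars and the median of all 13260 genes tested as a dashed blue line. The median of all 24 plotted genes of the ATF4 arm is 1.27, with Chac1 and Nupr1 included, and those of the ER lists lie between 0.001 and 0.08.

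In the same libraries all tested genes of the ATF4 arm had a higher mean in cKO hearts. Of 27 listed genes of this arm 24 were tested. Of these, Chac1 and Nupr1 were under 1 FPKM in every ctrl library and passed the filter on low values through the cKO libraries. Their direction was thus fixed by the filter, and these 2 are left out of the counts of expression differences. In 20 of the other 22 every cKO library was above every ctrl library, beside 7.74% of all genes tested. Atf4 was at 52.5, 58.1 and 57.5 FPKM in ctrl and 152, 137 and 103 FPKM in cKO hearts. Atf4 thus rose, by 1.19 on the log2 scale with an adjusted p of 0.0311 and a standard error of 0.14, although the adjusted p ranged from 0.000488 to 0.213 over the alternatives and was above 0.05 without any 1 of the ctrl libraries or without cKO replicate 1, at up to 0.168. The 22 genes were each higher with an unadjusted p under 0.05, beside 5.57% of all genes. An adjusted p under 0.05 was reached by 5 of them, beside 0.083% of all genes, and their median log2 fold change was 1.22. The list was assembled with knowledge of these data, so its count is no independent evidence of its direction. Trib3, a pseudokinase induced by ATF4 and CHOP, rose by 2.56 on the log2 scale (adjusted p = 0.00307). The amino acid transporter genes Slc7a5 and Slc3a2 rose by 1.41 and 1.07, and Mthfd2, of mitochondrial folate metabolism, by 1.73. Without any 1 of the ctrl libraries Slc3a2 and Mthfd2 were above the adjusted threshold, at adjusted p values of up to 0.115 and 0.168, and both were at 0.0616 with the replicate number as a block. Mthfd2 was also above it without cKO replicate 1, at an adjusted p of 0.0851. Ddit3, which encodes CHOP and was named after its values were seen, was at 8.82, 8.20 and 8.38 FPKM in ctrl and 44.8, 35.7 and 15.5 FPKM in cKO hearts. Its log2 fold change was 1.68 (standard error 0.32, adjusted p = 0.106). It was 2.12 with an adjusted p of 0.000169 without cKO replicate 3, and with another library left out the adjusted p was up to 0.366. Exact letters were searched in the 24 genes of this list with a window, which are not the 24 tested genes. The CARE was found in 8 of them, beside 3.45% of all windows. Chac1, Nupr1 and the untested Fgf21 and Slc7a11 were among the 8. The ERSE was in 0, beside 0.113% of all windows, which is no result about the list. The Ddit3 window holds CGTGC, 9 free bases and ATTGG, which differs from an ERSE on the other strand by 1 letter.

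The branches were compared within each library as ratios to Hspa5, which removes the scaling of the library, and 5 such ratios were computed, with Ddit3 and Atf6 beside those given here. The ratio of Atf4 to Hspa5 was 0.241, 0.222 and 0.245 in ctrl and 0.733, 0.576 and 0.446 in cKO hearts, a log2 difference of 1.28. The ratio of Herpud1 to Hspa5 was 0.0759, 0.0569 and 0.0772 in ctrl and 0.166, 0.137 and 0.0890 in cKO hearts, a log2 difference of 0.87. Neither ratio overlapped between groups, and the exact two-sided permutation test gave p = 0.1 for each of the 5, the smallest value that 3 against 3 libraries allow and the same after adjustment. The ratio of Hsp90b1 to Hspa5, 2 genes with an ERSE, was 1.25, 1.29 and 1.21 in ctrl and 1.33, 1.33 and 1.37 in cKO hearts, a log2 difference of 0.11 with the same p. For the levels of single genes, groups without overlap occurred in 20.8% of all genes tested, and this share was not computed for ratios.

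Cytosolic heat shock genes, which answer to unfolded proteins outside the ER, had 2 of 11 tested genes with an unadjusted p under 0.05, in opposite directions, which is 18.2% beside 15% of all genes. Hsph1, an exchange factor of cytosolic Hsp70, was at 0.36 on the log2 fold change scale (adjusted p = 0.257) for the gene sum and 2.77 (adjusted p = 0.388) with its most abundant row, and Dnaja1, an Hsp40 co-chaperone, at -0.37 (adjusted p = 0.222) for the gene sum and 0.04 when only its most abundant row was used. The inducible gene Hspa1b was at 28.1 FPKM in cKO replicate 1 and between 0.787 and 1.68 FPKM in the other 5 libraries, so its log2 fold change of 1.45 rests on 1 library. Hsp90aa1, the stress-inducible cytosolic Hsp90, was at 0.23 with overlapping groups.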

How the data were processed

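Pooled embryonic hearts, in 3 ctrl and 3 cKO libraries, were profiled by strand-specific RNA sequencing after removal of ribosomal RNA. The methods of the study describe mRNA selected with poly-T beads instead, without naming the embryonic hearts there. The authors deposited FPKM values for 60776 transcript rows. The submitters' processing notes name Bowtie2 2.2.8, HISAT2, StringTie 1.3.1, Cuffdiff 2.1.1 and the build mm9, without saying which step each served, and read counts cannot be had from the table. Rows were summed to 26191 genes, transcript names and lengths came from the GENCODE M21 annotation, and promoters from RefSeq (GRCm38.p6), whose coordinates were not mixed with mm9.

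The 13260 genes whose FPKM was 1 or more in 3 or more of the 6 libraries were compared on log2(FPKM + 1) with limma 3.58.1 in R 4.3.3 (empirical Bayes with a trend), with Benjamini-Hochberg adjustment, a threshold of 0.05 and 95% intervals. Adding 1 understates changes of low genes. Ratios were tested by exact permutation. The fit was also run on simulated normal values, which checks its code and not how well it suits these data. The labels call the libraries biological replicates, and other splits of them were not run. Each library's replicate number is the one in its label. The 10 genes and all lists were chosen with earlier results of these data known. Named genes are the 10 members, Mrps5, Atf4, the 8 sensor genes and the up to 4 genes of each other list with the smallest unadjusted p, and any other is said to be named after its value was seen. Of the genes this rule selects, 1 is not reported here. Marker lists were counted too. At an unadjusted p under 0.05, beside 15% of all genes tested, there were 2 of 8 endothelial markers (1 higher, 1 lower), 2 of 8 epicardial (both higher), 1 of 15 matrix and mesenchymal (higher), 1 of 5 macrophage (lower), 0 of 7 liver and 5 of 11 erythroid markers (all higher). Cell markers were described only by these counts and by summed FPKM, or for erythroid genes by their share of it. Endothelial markers summed to 232 to 252 FPKM in ctrl and 216 to 244 FPKM in cKO hearts. Macrophage markers summed to 20.97 to 25.04 FPKM in ctrl and 16.07 to 18.94 FPKM in cKO hearts. Liver markers summed to 151, 320 and 23.8 FPKM in ctrl and 96.1, 192 and 142 FPKM in cKO replicates 1, 2 and 3. The 15 alternatives were another pseudocount (0.1), no filter, a mean FPKM of at least 5, quantile normalization, median centring, library totals without erythroid genes, the most abundant row only, protein-coding rows only, a replicate block, and leaving out each library.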

Additional observations from a re-analysis of the deposited data

How the results depend on the processing

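The FPKM table gives no read numbers, so the counting error of the lower genes, such as Dnajb9 and Sdf2l1 at 12.4 and 13.99 FPKM in ctrl hearts, is unknown, and 3 libraries a group set the width of the intervals. Of 628 values under 15 alternatives, for 40 genes named by the rule and for Ddit3 and Chac1, which were named after their values were seen, 561 kept direction and side of the threshold, 39 changed sign, 22 lost and 6 gained an adjusted p under 0.05, and the cause was not tested.

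The 11 genes with an adjusted p under 0.05 became 6 without the filter on low values, 4 with the most abundant row only and 5 to 270 when 1 library was left out (270 without cKO replicate 3, 121 without cKO replicate 2). The 1990 genes with an unadjusted p under 0.05 became 1314 at a mean FPKM of at least 5, where fewer genes were tested, and 1216 to 2167 when 1 library was left out, and they were 2634 with no filter, where more were tested. Their split of 739 higher and 1251 lower was 961 and 1052 with library totals without erythroid genes. Among the 10 ER genes, 2 had an unadjusted p under 0.05 with those totals (Herpud1 and Hyou1) and 1 to 2 when 1 library was left out (2 without cKO replicate 3, Herpud1 and Sdf2l1). Other counts at an unadjusted p under 0.05 moved as follows. Sensor genes became 2 with the most abundant row. Other folding genes became 4 with no filter and with quantile normalization, 1 with a mean of at least 5, with the most abundant row and with protein-coding rows, and 1 to 3 with 1 library left out. Degradation genes became 3 to 4, entry and export genes 0 to 2, and heat shock genes 1 with the most abundant row and 1 to 4 with 1 library left out.

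With quantile normalization the log2 fold change was -0.059 for Hsp90b1, -0.0002 for Xbp1, -0.18 for Hspa5 and -0.14 for Calr. Over all 15 alternatives that of Hspa5 ran from -0.18 to -0.0073, with an adjusted p of 0.377 to 0.989 in limma. With median centring it was 0.0013 for Dnajb9 and 0.001 for Mbtps1. With library totals without erythroid genes it was 0.013 for Pdia4, 0.0012 for Calr, 0.014 for Dnajb9 and 0.015 for Mbtps1. With the most abundant row it was -0.037 for Eif2ak3 and 0.042 for Dnaja1. With 1 library left out it ran from -0.032 to 0.12 for Hsp90b1, -0.074 to 0.052 for Pdia4, -0.028 to 0.11 for Pdia6, -0.097 to 0.062 for Calr, -0.094 to 0.090 for Dnajb9, -0.035 to 0.081 for Xbp1, -0.049 to 0.099 for Ern1, -0.070 to 0.072 for Eif2ak3, -0.047 to 0.034 for Mbtps1, -0.050 to 0.13 for Mbtps2 and -0.13 to 0.034 for Creb3l2. Herpud1 ran from 0.62 to 0.98 and passed the adjusted threshold without cKO replicate 3 (adjusted p = 0.00351). Atf4 lost it with no filter, quantile normalization, the most abundant row, the block, and without any ctrl library or cKO replicate 1, Mthfd2 in the same cases, and Slc3a2 in these except quantile normalization and cKO replicate 1. Trib3 and Slc7a5 kept it in every alternative, at up to 0.0490.

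In a fit blocked by replicate number, 4 genes passed an adjusted p under 0.05 and 2221 an unadjusted p under 0.05, and 1 of the 10 ER genes, Herpud1, still had one. Same-numbered libraries deviated together by r = 0.22, 0.11 and 0.09, so the numbers were not taken to pair them, although each library correlated best with its own number, which is a hint from the data and not the design.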
